A study of Homo sapiens with 9 samples.

Results

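The regions described here were the 802 control peaks of POLR2A, the catalytic large subunit of RNA polymerase II, that overlapped no peak called after knockdown of U2AF1 and none called after knockdown of DHX9. They were chosen by the positions of the authors' peak intervals, with a single shared base counting as overlap, so being absent from both knockdown lists is the rule and not a finding. They made up 29.1% of the 2757 control peaks (95% Wilson interval 27.4 to 30.8). Of the other control peaks, 1001 recurred only after DHX9 knockdown, 114 only after U2AF1 knockdown and 840 after both. Occupancy was mapped by ChIP-seq, the sequencing of DNA pulled down with an antibody to POLR2A from fixed chromatin, in HEK293T, an established line of human embryonic kidney cells. The control cells carried a control shRNA in an otherwise wild-type line, and the other cells carried a knockdown of U2AF1 or of DHX9. Each condition had 2 ChIP replicates with 1 input sample, and per the labels 1 peak list belongs to both replicates, so replicate errors cannot be given, and library depth is unknown. Peak names in the control list alone end in what reads as replicate 1, so that list may rest on a single library. The control list held 2757 peaks, against 1730 for U2AF1 knockdown and 4443 for DHX9 knockdown. Intervals cover counting error over peaks only.

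RNA polymerase II is loaded at promoters and often pauses just downstream of the start site, which makes active start sites the usual places of its ChIP-seq peaks. U2AF1 recognises the 3′ splice site together with its large partner U2AF2, and DHX9 is a helicase that unwinds RNA and RNA and DNA hybrids. Human centromeres consist of alpha satellite, a tandem repeat of a short monomer that can carry the CENP-B box, the binding site of the centromere protein CENP-B. Other heterochromatic blocks next to centromeres consist of satellites built from a 5-bp unit.

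The missing peaks fell into 5 groups by their sequence and place. The largest held 518 peaks with a summit within 1000 bp of an annotated transcript start. The next held 188 peaks in sequence that repeats itself at 171 bp or at double that length, the period of alpha satellite. A further 27 lay in a 5-bp satellite repeat and 17 in low-complexity sequence, such as runs of AG and AC. The last 52 had none of these features. The groups were defined after the data were seen, and each peak was placed in the first that applied, in the order low complexity, 171-bp repeat, 5-bp repeat, start site and other. Another 2 missing peaks near a start thus fell in an earlier group.

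Low-complexity sequences are shown first because the strongest missing peaks lay in them. They are given as the GRCh38 reference has them, with 60 bp on either side of the summit. Capitals mark the longest run that repeats exactly every 2 bases.
ANAPC7 intron, chr12:110387253-110387373, plus strand: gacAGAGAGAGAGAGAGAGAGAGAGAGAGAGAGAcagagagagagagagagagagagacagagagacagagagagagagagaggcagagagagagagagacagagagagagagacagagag
LINC02646 intron, chr10:130360435-130360555, plus strand: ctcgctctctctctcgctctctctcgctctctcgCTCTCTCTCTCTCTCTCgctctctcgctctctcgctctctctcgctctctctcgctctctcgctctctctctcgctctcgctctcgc
The run was 31 bases long in the ANAPC7 intron and 17 bases long in the LINC02646 intron.

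Satellite monomers from the peaks of 3 arrays are shown next, each starting at a match to the core letters of the CENP-B box, TTCGNNNNANNCGGG, which is in capitals.
Chromosome 1 monomer, chr1:122773329-122773499, plus strand: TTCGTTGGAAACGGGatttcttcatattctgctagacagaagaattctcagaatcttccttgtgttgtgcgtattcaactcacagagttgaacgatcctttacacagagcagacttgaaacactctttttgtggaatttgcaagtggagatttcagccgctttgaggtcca
Chromosome 5 monomer, chr5:47579266-47579436, plus strand: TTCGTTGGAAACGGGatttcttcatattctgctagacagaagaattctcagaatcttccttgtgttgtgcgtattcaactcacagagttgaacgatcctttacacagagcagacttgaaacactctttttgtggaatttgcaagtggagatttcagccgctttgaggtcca
Chromosome 19 monomer, chr19:25622229-25622399, plus strand: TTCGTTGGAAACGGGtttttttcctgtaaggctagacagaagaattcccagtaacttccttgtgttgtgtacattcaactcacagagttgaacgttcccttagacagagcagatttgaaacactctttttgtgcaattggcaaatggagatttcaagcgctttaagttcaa
The chromosome 1 and chromosome 5 monomers were identical over 171 bases, and both differed from the chromosome 19 monomer by 25 edits, which is 85.4% identity. The place of origin of reads from such monomers is uncertain. The 5-bp repeat peak of highest significance is shown with its ATTCC units in capitals.
Chromosome 1 repeat, chr1:143219742-143219862, minus strand: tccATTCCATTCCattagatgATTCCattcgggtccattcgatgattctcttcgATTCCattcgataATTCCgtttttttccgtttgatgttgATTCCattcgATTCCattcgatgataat

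For the start-site group, up to 120 bases before the annotated start are given, inside the peak, for 5 missing peaks. They were the strongest among those searched with no untranslated region in that window, single-copy sequence and a named gene. Peaks with only a short stretch before the start, and some sequences of the reference, were not searched. Capitals mark, on either strand, the letters CCAAT (bound by NF-Y), GGGCGG (bound by SP1), CGGAAG (bound by ETS factors) and TATAAA (the TATA box).
Upstream of THAP9-AS1, chr4:82900961-82901080, minus strand: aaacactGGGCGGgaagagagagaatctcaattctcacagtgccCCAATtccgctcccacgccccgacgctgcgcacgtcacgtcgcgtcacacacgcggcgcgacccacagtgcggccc
Upstream of CDR2, chr16:22374620-22374739, minus strand: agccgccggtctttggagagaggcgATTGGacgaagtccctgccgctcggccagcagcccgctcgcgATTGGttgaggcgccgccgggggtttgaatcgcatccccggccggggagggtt
Upstream of AKIRIN2, chr6:87702234-87702345, minus strand: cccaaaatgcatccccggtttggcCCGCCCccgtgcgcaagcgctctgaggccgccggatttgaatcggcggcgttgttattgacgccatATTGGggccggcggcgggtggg
Upstream of TIAL1, chr10:119597030-119597149, minus strand: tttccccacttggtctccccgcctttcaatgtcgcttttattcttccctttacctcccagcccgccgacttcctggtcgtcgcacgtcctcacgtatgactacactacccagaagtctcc
Upstream of LINC00888, chr3:183447558-183447648, plus strand: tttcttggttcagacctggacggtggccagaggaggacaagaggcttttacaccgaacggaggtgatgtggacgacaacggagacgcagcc
THAP9-AS1, CDR2 and AKIRIN2 had 2 matches each, while TIAL1 and LINC00888 had 0. A match is a description of the letters and not a site.

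Groups differed in how often their control peaks were missing. Peaks in 171-bp repeats were missing in 188 of 232 cases (81.0%, 75.5 to 85.6), and peaks in 5-bp repeats in 27 of 38 (71.1%, 55.2 to 83.0). Low-complexity peaks were missing in 17 of 31 cases (54.8%, 37.8 to 70.8) and other peaks in 52 of 145 (35.9%, 28.5 to 43.9). Of control peaks at start sites, 22.4% (20.8 to 24.2, 518 of 2311) were missing. The background was 29.1% over all control peaks, so the repeat groups lay above it and the start-site group below it.

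**Figure D1:**
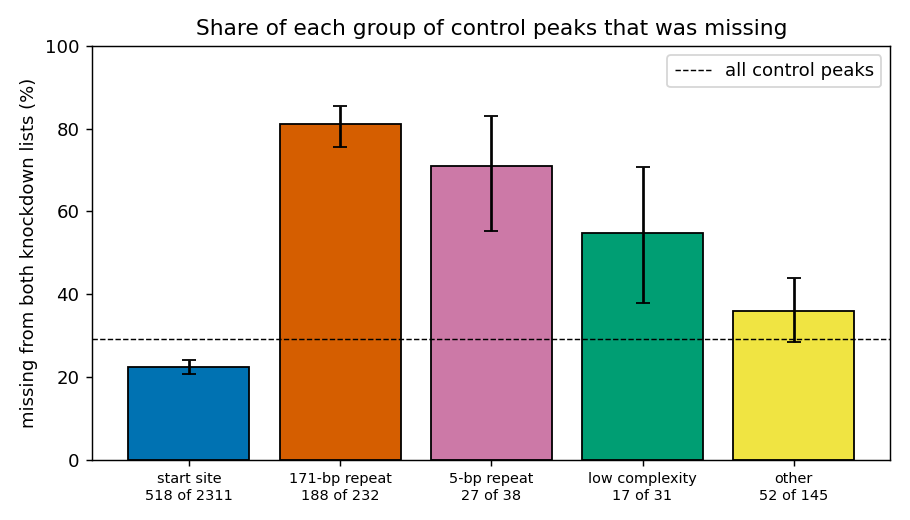
Bars give the percentage of each group of control peaks missing from both knockdown lists, with 95% Wilson intervals, and the dashed line marks all control peaks. The 171-bp repeat group stands highest at 81.0% and the start-site group lowest at 22.4%.

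By location, missing peaks differed from the control peaks found in at least 1 knockdown list. A start site lay within 1000 bp of 67.7% of the missing peaks on annotated sequence (520 of 768) and of 94.1% of the found peaks (1795 of 1907), a difference of -26.4 percentage points (95% Newcombe interval -29.9 to -23.0). Outside genes lay 29.8% of the missing peaks and 4.25% of the found ones, a difference of 25.6 points (22.3 to 29.0). The pooled values hide a split among the found peaks. Those that recurred only after U2AF1 knockdown, and so were missing from the DHX9 list as the members were, had 68.8% at start sites (59.7 to 76.6) and 28.6% outside genes (21.0 to 37.5), close to the members. Those that recurred only after DHX9 knockdown had 97.4% and 1.62%, and those that recurred after both had 93.7% and 4.09%. The 171-bp repeat held 23.4% of the members, 18.4% of the peaks that recurred only after U2AF1 knockdown, 0.500% of those that recurred only after DHX9 knockdown and 2.14% of those that recurred after both. The 5-bp repeat held 3.37% of the members and 7.89% (4.21 to 14.3), 0% and 0.238% of the same 3 kinds of found peak. Gene bodies held 2.47% of all missing and 1.63% of all found peaks, and the interval of that difference, -0.263 to 2.29 points, included 0. When satellite peaks were left out, an alternative chosen after seeing the data, the start-site difference was -3.75 points (-6.30 to -1.68). With the same number of most significant peaks in each list it was -11.9 points.

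Sequence present at more than 1 place of the reference was frequent among the missing peaks. The copy count took in alternate sequences, so a second place could be another version of the same region. Without alternate sequences in the count, the multi-copy shares were 32.7% of the missing and 10.5% of the found peaks (difference 22.1 points, 18.7 to 25.7). The values below include them. In 279 of 802 (34.8%) at least 50% of the 31-base words of the peak occurred at more than 1 place of the reference, against 11.3% of the found peaks (difference 23.5 points, 19.9 to 27.1). The found peaks were not uniform in this, with 35.96% multi-copy (27.7 to 45.1, 41 of 114) among those that recurred only after U2AF1 knockdown, 15.7% among those that recurred after both and 4.80% among those that recurred only after DHX9 knockdown. At start sites the pattern differed, with 22 of 118 multi-copy peaks missing (18.6%, 12.7 to 26.6) and 498 of 2197 single-copy peaks missing (22.7%, 21.0 to 24.5).

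In strength the missing peaks sat low in the control list. Their median fold enrichment, the authors' ratio of ChIP signal to background, was 3.67, with a range from 1.09 to 19.1. The medians were 4.12 for peaks that recurred only after DHX9 knockdown, 3.76 for those that did so only after U2AF1 knockdown and 4.95 for those that did so after both. The median −log10 q was 5.47 for the missing peaks, against 7.001, 7.80 and 12.8.

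The groups of missing peaks differed in this respect as well. Start-site members had a median fold of 3.93 and a median −log10 q of 5.52. Members in 171-bp repeats had a median fold of 2.71 and a median −log10 q of 4.49. Those in 5-bp repeats combined a low median fold, 1.50, with a high median −log10 q of 21.6, and the most significant of them reached 85.2. Low-complexity members were the strongest, with a median fold of 6.07 and a median −log10 q of 27.2. In the satellite groups the members were not the lower in median fold. Found peaks there had median folds of 1.97 (171-bp repeats) and 1.43 (5-bp repeats), with higher median −log10 q, 10.0 and 38.8. Found start-site and low-complexity peaks had higher median folds than the members, 4.43 and 7.63.

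**Figure D2:**
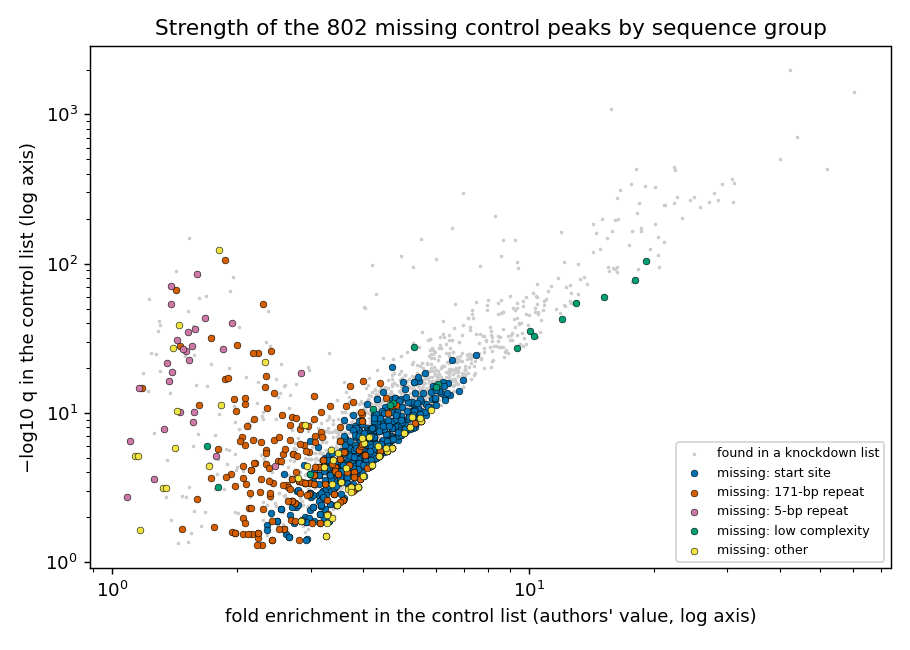
Each point is a control peak, with fold enrichment on the x axis and −log10 q on the y axis, both logarithmic, and colours mark the 5 groups of missing peaks. Low-complexity peaks make up the right end of the missing peaks, up to a fold of 19.1, and the upper left holds 5-bp repeat, 171-bp repeat and other peaks of low fold and high −log10 q.

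When control peaks were divided into 10 deciles by fold, 50.7% of the lowest decile were missing and 4.71% of the highest. Start-site peaks did not follow this as a steady fall. Their missing share was 19.4% in the lowest decile (11.7 to 30.4), 32.4% in decile 3 (26.8 to 38.5) and 2.06% in the highest (0.882 to 4.72). Satellite peaks were missing in 71.8% of cases in the lowest decile, 87.3% in decile 2, and in all 18 and all 14 cases in deciles 3 and 4. In the lowest decile 10.2% of the missing peaks on annotated sequence lay at start sites, against 50% of the found ones. In decile 8, where the share of the missing peaks was highest, the values were 94.7% and 99.1%. The highest decile had 54.55% of only 11 missing peaks at start sites, against 93% of the found ones.

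**Figure D3:**
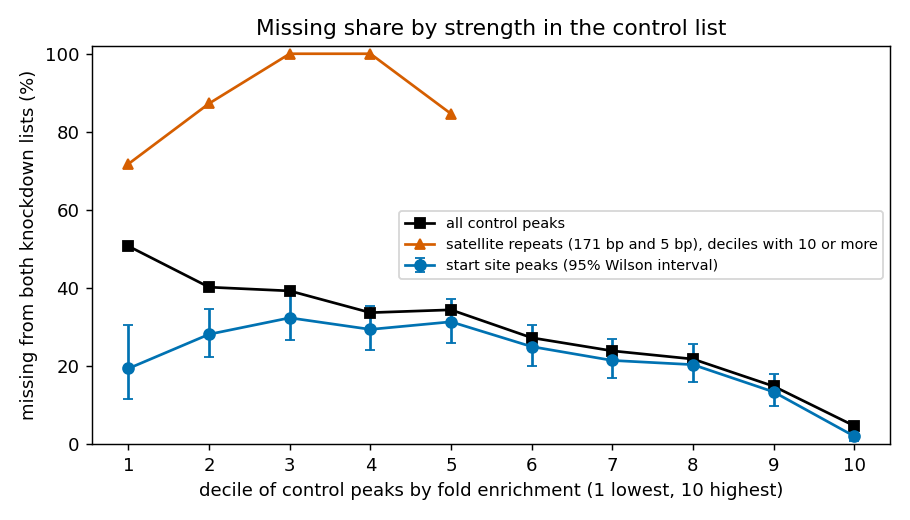
Lines give the percentage of control peaks missing from both knockdown lists in each decile of fold enrichment, for all peaks, start-site peaks with 95% Wilson intervals, and satellite peaks where a decile held at least 10. Satellite peaks stay above 71% in the deciles drawn, and start-site peaks are at 2.06% in the highest.

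Low-complexity sequence held the 8 members of highest fold. The ANAPC7 peak lay in an intron of that anaphase-promoting complex subunit gene, 36 bp upstream of an annotated start (chr12:110387215-110387433). Its fold was 19.1 and its −log10 q 104.8, and it ranked 30 of 2757 in the control list. A peak on an alternate sequence of chromosome 2 had a fold of 18.0. The peak in an intron of LINC02646, a long non-coding RNA gene, had a fold of 15.1 (chr10:130360223-130360702). An intron of ITFG2-AS1 held a peak with a fold of 10.1, and an alternate sequence of chromosome 21 held one of 9.39.

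By repeat unit, runs of AG and AC made up 13 of the 17 low-complexity members and 5 of the 14 low-complexity control peaks that were found in a knockdown list. The strongest of the found ones was an AG and AC peak of fold 52.0. Over all peaks, low-complexity sequence held 2.12% of the missing and 0.716% of the found ones, a difference of 1.40 points (0.476 to 2.69).

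Members in 171-bp repeats lay almost wholly outside genes, 184 of 188, with the other 4 on unannotated sequence. Over 2000 bp around their summits, the bases matched those 1 or 2 monomers on at a median of 63.1% of positions (40.5 to 94.8), against a median of 28.9% for control peaks outside the group. The best match was at the length of a single monomer in 58 members and at 2 monomers in 130, of which 107 were at exactly 340 bp. Their median GC content was 38.8%, against 68.7% for start-site members. The CENP-B core letters lay within 100 bp of the summit in 75 of the 188 (39.9%), on either strand. The same was seen in 12 of the 44 found peaks of the group (27.3%), in 0 of the other missing peaks and in 3.19% of all control peaks.

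These members gathered in a few centromeres. Chromosome 5 held 35, between 47309604 and 49917640, and chromosome 1 held 34, between 121614982 and 124782315. Chromosome 19 held 31, between 25029704 and 27169483, and chromosomes 4, 7 and 11 held 17, 11 and 8. The control peaks of the group, missing or found, gathered on the same chromosomes. They numbered 43 on chromosome 5, 39 on chromosome 1 and 37 on chromosome 19, and 17, 11 and 10 on chromosomes 4, 7 and 11. The gathering is thus a trait of the 171-bp repeat peaks in the control list and not of the missing ones alone. The strongest on chromosome 1 (chr1:122773270-122773636) had a fold of 5.34 and a −log10 q of 8.52. The strongest of all lay on chromosome 21 (chr21:10979054-10979325), with a fold of 5.51 and a −log10 q of 8.87. The GC content of 1 member, 20.4%, was the lowest in the group.

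**Figure D4:**
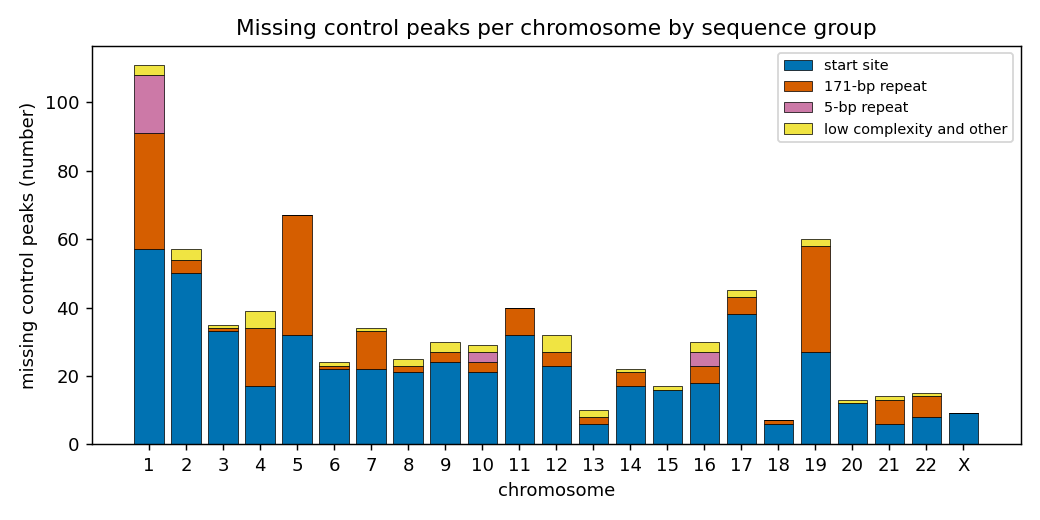
Stacked bars give the number of missing control peaks on each chromosome by sequence group. Chromosomes 1, 5 and 19 carry the most missing 171-bp repeat peaks, 34, 35 and 31, of 39, 43 and 37 in the control list.

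On chromosomes 5, 19 and 4 the missing share of all control peaks was 46.2%, 40.5% and 38.2%, the highest of the chromosomes. Start-site peaks alone were missing in 12.5% to 33.3% of cases per chromosome.

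The knockdown lists were not free of such repeats. Peaks in 171-bp repeats made up 232 of the control peaks (8.42%), 111 of those called after U2AF1 knockdown (6.42%) and 65 of those called after DHX9 knockdown (1.46%). Among peaks whose −log10 q reached 5 the numbers were 116 (5.90%), 55 (5.33%) and 38 (1.34%). Of the 188 missing members, 177 lay on a chromosome where the U2AF1 knockdown list had such a peak and 144 on one where the DHX9 knockdown list did. A knockdown peak lay within 1000 bp of 2 of the 188. Peaks in 5-bp repeats numbered 38 (1.38%), 10 (0.578%) and 3 (0.0675%) in the same order of lists. Low-complexity peaks numbered 31 (1.12%), 24 (1.39%) and 47 (1.06%), and the 95% intervals of these 3 shares overlapped.

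The 27 members in 5-bp repeats lay on chromosome 1 (17, between 125166926 and 143267525), chromosome 16 (4), chromosome 10 (3) and an unlocalised sequence of chromosome 1 (3). The most significant (chr1:143219708-143219930) had a fold of 1.60 and a −log10 q of 85.2. A second, chr1:125182190-125182708, had a fold of 1.38 and a −log10 q of 71.0. Low fold and high significance thus occurred together here, unlike in the start-site members, whose highest −log10 q was 24.2. The 11 found control peaks in 5-bp repeats shared this, with a median fold of 1.43 and a −log10 q of up to 149.5.

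The 518 start-site members covered genes of many functions. The strongest was at GPR89A, which encodes a Golgi pH regulator (chr1:145607802-145608304, fold 7.47, −log10 q 24.2), and 54.1% of its 31-base words occur elsewhere in the reference. It was followed by THAP9, a transposase-derived gene (chr4:82900260-82901082, fold 6.95), and by CDR2, which encodes a neuronal autoantigen (chr16:22374443-22374952, fold 6.79). The ribosomal protein genes RPL28 (chr19:55385804-55386171, fold 6.57) and RPS9 (chr19:54200729-54201021, fold 6.40) were among the 15 strongest. For RPS9, 88.2% of the words occur elsewhere, alternate sequences counted, and for SIK1, a salt-inducible kinase gene (fold 6.47), 100%. The nearest knockdown peak lay 337 bp from the SIK1 peak.

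The rest of the 15 included ATP1B3, a subunit of the sodium and potassium pump (fold 6.36), the ephrin receptor gene EPHA4 (6.29) and METAP1, a methionine aminopeptidase gene (6.27). DNMT3B, which encodes a de novo DNA methyltransferase, had a fold of 6.25 (chr20:32762348-32762601), with its summit 1 bp before the start. CASC3, an exon junction complex gene, had a fold of 6.10 and AKIRIN2 of 6.01. RP9, CCDC88A and ADAP2 closed the 15 with folds of 5.99, 5.95 and 5.95. At the other end were MBLAC2, AZIN1 and MKS1, with folds of 2.49, 2.35 and 2.35.

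Gene families were counted by control peaks with a start of the family within 1000 bp, against the background of 22.5% of all start-site control peaks missing (20.8 to 24.2). Cytosolic ribosomal proteins, which build the ribosome, were missing at 15 of 55 peaks (27.3%, 17.3 to 40.2). These were RPL28, RPS9, RPL13A, RPL7, RPL23A, RPL18, RPL26, RPL23, RPL37A, RPL29, RPS29, RPL32, RPL36A, RPL26L1 and RPL17, with folds from 6.57 down to 3.23. A knockdown peak lay 617 bp from the RPL7 peak. The median fold of the missing ones was 5.13, and that of the ribosomal protein peaks that were found was 4.57. Mitochondrial ribosomal proteins were missing at 7 of 19 (36.8%, 19.2 to 59.0). Oxidative phosphorylation genes, which include subunits of the respiratory chain (NDUFC2) and of ATP synthase (ATP5F1C), were missing at 7 of 23 (30.4%, 15.6 to 50.9). The intervals of these 3 families included the background.

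Cyclins and cyclin-dependent kinases were missing at 5 of 10 peaks (50%, 23.7 to 76.3), namely CCND1, CCNH, CDK17, CCNA2 and CCNE2, with folds of 4.48, 3.93, 3.35, 3.23 and 2.93. In the same order their −log10 q values were 13.7, 5.63, 2.46, 4.33 and 1.41, and the lowest in the control list was 1.31. The lower bound lay just above the background in this family, 1 of 18 counted, and the CCNE2 peak also counted for NDUFAF6 among the oxidative phosphorylation genes. Zinc finger genes were missing at 9 of 46 (19.6%), histones at 4 of 30 (13.3%), with 2 peaks at H4C16, chaperones at 3 of 17, translation factors at 2 of 16, proteasome genes at 2 of 10, and splicing factors of the SR and hnRNP families at 2 of 18 (HNRNPA1 and SRSF8). Long non-coding RNA genes were missing at 152 of 702 (21.7%, 18.8 to 24.9).

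Some of the lists had few or no missing peaks. Genes annotated as small nuclear RNAs, among them the RNA parts of the spliceosome, were missing at 1 of 54 peaks (1.85%, 0.328 to 9.77). The found ones had a median fold of 16.4. The missing one was counted for RNU4-8P, a pseudogene by its name, and its summit lay 11 bp upstream of the start of ACTR1B. Immediate early genes were missing at 0 of 9, the listed snoRNA host genes at 0 of 14, DEAD and DEAH box helicases at 0 of 7 and R-loop enzymes at 0 of 4. With so few peaks the upper bounds of these shares were 29.9%, 21.5%, 35.4% and 49.0%. Peaks near a snoRNA gene itself were missing at 5 of 28 (17.9%, 7.88 to 35.6), and 3 of these lay at RPL23A, RPL23 and RPL17, ribosomal protein genes outside the list of hosts. The found snRNA peaks were strong, and the part of strength in these counts was not tested. Genes of small nuclear RNAs exist in near-identical copies, so their reads are of uncertain origin.

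Start-site members were compared with the start-site peaks that were found. Their median summit lay 24.5 bp downstream of the start, against 33 bp, and 67.6% of summits lay downstream, against 73.3% (difference -5.77 points, -10.4 to -1.36). The start-site peaks that recurred only after DHX9 knockdown lay nearer to the members, with a median of 29 bp and 69.6% downstream, than those that recurred after both, with 38 bp and 77.2%, or only after U2AF1 knockdown, with 41 bp and 81.8%. The members' median GC content within 100 bp of the summit was 68.7%, against 72.6% for all found start-site peaks. The median CpG ratio, observed over expected, was 0.890 for the members against 0.942. Members had a median fold of 3.93 and the found peaks of 4.43, and the part of strength in these differences was not tested.

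**Figure D5:**
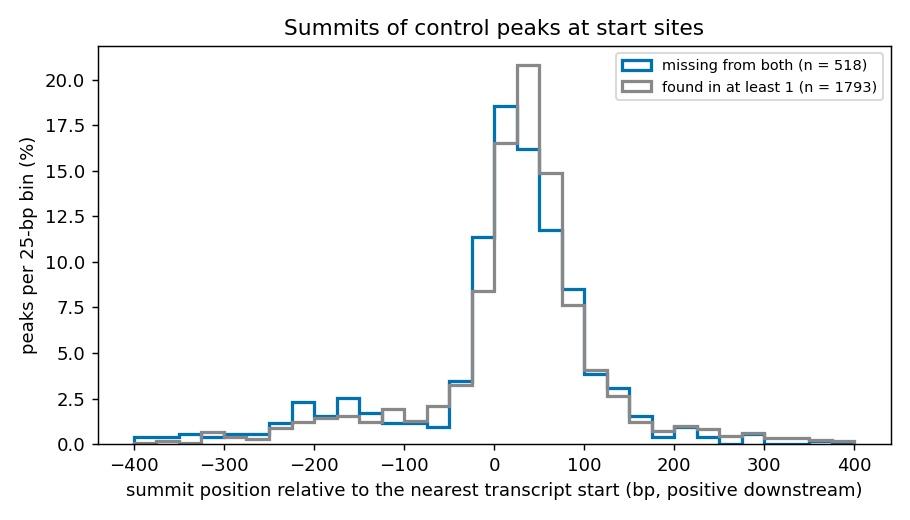
Histograms give the percentage of start-site control peaks per 25-bp bin of summit position relative to the nearest transcript start, for 518 missing and 1793 found peaks. Both peak just downstream of the start, and 19 missing and 46 found peaks lie beyond the axis.

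Motif letters were searched on both strands within 100 bp of the summit. CCAAT occurred in 12.2% of start-site members and 8.76% of the found peaks (difference 3.41 points, 0.507 to 6.74). Over all start-site control peaks it occurred in 9.52%, and over all control peaks of any kind in 9.65%. GGGCGG occurred in 54.2% of the members and 61.4% of the found peaks (difference -7.16 points, -12.0 to -2.34). The shares were 59.8% over all start-site control peaks and 52.05% over all control peaks. TATAAA occurred in 2.51% and 5.13% (difference -2.62 points, -4.15 to -0.652). The shares were 4.54% over all start-site control peaks and 7.33% over all control peaks. In start-site peaks that recurred only after DHX9 knockdown TATAAA occurred in 2.29%, about as in the members, against 7.79% after U2AF1 knockdown only and 8.49% after both. CGGAAG occurred in 21.2% of the members and 21.3% of all found start-site peaks, with an interval from -3.91 to 4.08 points. Runs that could fold into G-quadruplexes were present in 20.3% and 21.7% (-5.21 to 2.69). Protein-coding starts made up 94.0% and 92.4% (-1.04 to 3.78). Protein-coding starts on both strands within 1000 bp of the summit were present in 16.4% and 14.5% (-1.43 to 5.73). GC skew, the excess of G over C on the sense strand, is a known feature of R-loop-forming promoters. It was taken over the 500 bp downstream of the nearest start, and was positive in 70.1% and 70.4% (-4.88 to 4.05).

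The remaining 52 members were mixed. On alternate sequences lay 17, of which 16 were multi-copy, with a median GC content of 71.6% and folds from 3.26 to 5.83. For these a copy could be the same region on the main chromosome, since the copy count took in both. Unplaced sequences held 8, gene bodies 13 and places outside genes 14. In 9 of the 52 the GC content was under 30%, with folds from 1.14 to 1.81 and a −log10 q from 1.63 to 123.8.

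Most missing peaks were far from any knockdown peak. A knockdown peak lay within 250 bp of 19 members, within 1000 bp of 37 and within 5000 bp of 62, of which 16, 28 and 36 were at start sites. On 23 members' sequences there was no knockdown peak, and over the rest the median distance to the nearest was 105559 bp. At the edge of the rule, the member at MRPL36, a mitochondrial ribosomal protein gene (chr5:1799766-1800107), was directly adjacent to a knockdown peak with 0 bases between them. The smallest overlap of a control peak that was not a member was 15 bp.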

How the data were processed

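Per the labels, the authors deposited 1 narrowPeak list per condition, whose columns hold a score, a fold enrichment (a ratio to a background that is not stated), −log10 of the p-value and q-value, and the summit. Per the submitters' processing notes, Bowtie2 2.4.5, deepTools 3.5.1, MACS2 2.2.7.1 and hg38 were used, with no roles given. Whether the control list rests on 1 replicate or both is not stated. Nor is the depth of the libraries.

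A control peak was a member if it shared no base (minimum overlap 1 bp) with either knockdown list. The members and lists were chosen with earlier results of these data known, and the satellite groups after the data were seen. Summits were placed on GENCODE annotation. Low complexity meant a trinucleotide entropy under 4 bits in 100 bp on either side of the summit, a 171-bp repeat at least 40% self-similarity at lags of 169 to 173 or 338 to 344 bp in 2000 bp, and a 5-bp repeat at least 35% of bases in rotations of ATTCC. The repeat search was tested on simulated sequence. Shares carry 95% Wilson intervals and differences Newcombe intervals. No test was run, since there is 1 list per condition. Named peaks were the 10 members of highest fold and the 15 highest at protein-coding starts outside low complexity, with examples of the groups, families and lowest peaks. Python 3.11.15, pandas 2.3.3, numpy 2.4.6 and pysam 0.24.0 were used. Some of these named peaks and their sequences are not reported here.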

Additional observations from a re-analysis of the deposited data

How the results depend on the processing

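No paired analysis was possible because the deposited data hold a single peak list per condition, and leaving out a replicate was not possible for the same reason. Of 32 alternative values, 21 stayed within the 95% interval of the reported value, 11 moved and 0 reversed direction. The missing share of 29.1% became 22.3% when control peaks needed a −log10 q of 5 or more, 32.4% with that limit in all lists, 34.8% with the same number of most significant peaks (1730 per list) and 33.0% when a shared summit within 250 bp was required. The start-site difference of -26.4 points became -11.9 with equal list lengths and -3.75 without satellite peaks. The low-complexity difference became 4.37 points with a limit of 4.5 bits. With equal list lengths the multi-copy difference was 8.61 points and the 171-bp repeat difference 9.16 points. The latter was 17.0 points when control peaks needed a −log10 q of 5 or more and 18.2 points with at least 50% similarity. The satellite alternatives were chosen after seeing the data. The cause of these moves was not tested, and unknown library depth limits how a missing peak can be read.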
